A study of Mus musculus with 4 samples.

Results

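The Ikaros family genes of the mouse, Ikzf1 to Ikzf5, were followed across T cells of AKP colorectal tumors and of the adjacent cecum. The 5 genes were taken by name from the 21884 genes counted, and their open chromatin was read as ATAC fragments with an end in the gene span plus 5 kb on each side. Counts were scaled to 1e+06 fragments of a cell type (FPM), over each gene as a whole and in 500-bp tiles. Where 2 values are joined, the cecum library comes first and the tumor library second, and where the Treg subsets are set against each other, IL-10+ Treg comes first.

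Ikaros family proteins are zinc finger transcription factors of lymphoid cells that bind DNA through zinc fingers near one end and pair with each other through zinc fingers near the other. Ikaros (Ikzf1) is needed for lymphocyte development, Helios (Ikzf2) is known for its expression in many regulatory T (Treg) cells and in innate-like T cells, and Aiolos (Ikzf3) acts in B cell and T cell maturation. Eos (Ikzf4) is known as a partner of Foxp3 in gene silencing in Treg cells, and Pegasus (Ikzf5) is a more distant and widely expressed relative. Family members recruit corepressors such as the NuRD remodelling complex, and Ikaros and Aiolos are drug-induced substrates of the cereblon ubiquitin ligase.

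AKP tumors grow from mouse intestinal organoids that lack Apc and Trp53, transplanted into the cecal wall. T cells were sorted 4 weeks after transplantation from the tumor and from the tumor-free cecum beside it, so that both groups came from tumor-bearing animals, and a single-cell multiome assay read nuclear RNA and ATAC fragments of the same nuclei. There was 1 ATAC library per tissue, and the number, strain, sex and age of the animals behind a library are not given in the sources used here. Tissue and library therefore cannot be told apart, no test was made, and intervals are exact 95% intervals that cover counting error only.

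The authors labelled 7155 cecum cells and 8466 tumor cells with 17 cell types from their RNA. Labelled cells had a median of 4374 and 5846 fragments, and 84 labelled barcodes occurred in both libraries. PD1+ CD4 cells numbered 14 in the cecum, so the order of cell types was taken over the other 16, each with at least 50 cells in both libraries. The chromatin of some defining markers followed the labels. Foxp3 and Il10 were highest in IL-10+ Treg cells, Gata3 in Th2, Cxcr5 in Tfh-like, Ccr7 in CCR7+ CD4 and Trdc in Cytotoxic gdT cells, in both libraries. Pdcd1 was led by Tfh-like cells in the cecum and Rorgt gdT cells in the tumor and not by PD1+ CD8 cells, in a ranking of the 16 cell types that leaves out PD1+ CD4. Il17a was led by Th17 cells in the cecum but by Rorgt gdT cells in the tumor, and Tbx21, the gene of the Th1 factor T-bet, by Cytotoxic CD8 cells and not Mucosal Th1 cells in both.

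Promoter sequences from RefSeq (GRCm38.p6, the build called mm10) were at hand for Ikzf1, with 2 start sites, and for Ikzf5. Ikzf2, Ikzf3 and Ikzf4 had no entry. They are shown because the start sites of these genes differed widely in composition and in how much of the gene's signal they held. Each line gives the 250 bases before the first transcribed base, 5′ to 3′, with CG dinucleotides in capitals.

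Ikzf1 promoter 1, chr11:11685675-11685924, plus strand: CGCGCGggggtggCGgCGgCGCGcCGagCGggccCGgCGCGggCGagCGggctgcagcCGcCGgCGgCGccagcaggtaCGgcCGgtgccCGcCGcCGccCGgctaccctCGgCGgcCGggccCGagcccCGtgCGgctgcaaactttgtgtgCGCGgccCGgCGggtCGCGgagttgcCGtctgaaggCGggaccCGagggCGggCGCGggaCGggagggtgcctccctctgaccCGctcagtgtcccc
Ikzf1 promoter 2, chr11:11689927-11690176, plus strand: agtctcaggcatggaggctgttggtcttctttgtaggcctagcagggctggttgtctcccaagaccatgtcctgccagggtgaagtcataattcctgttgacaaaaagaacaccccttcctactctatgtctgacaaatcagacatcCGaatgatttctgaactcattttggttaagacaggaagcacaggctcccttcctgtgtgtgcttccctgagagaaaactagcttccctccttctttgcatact
Ikzf5 promoter, chr7:131410479-131410728, minus strand: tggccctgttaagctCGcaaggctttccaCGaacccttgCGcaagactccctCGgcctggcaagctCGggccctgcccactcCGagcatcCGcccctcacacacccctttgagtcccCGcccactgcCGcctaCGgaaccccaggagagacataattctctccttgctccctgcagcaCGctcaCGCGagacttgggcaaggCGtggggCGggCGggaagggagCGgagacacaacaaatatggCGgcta

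Promoter 1 of Ikzf1 held 44 CG dinucleotides and was 82% G and C, with more CG than 99.5% of the 32851 promoters in the table. Promoter 2 held 1 CG at 47.6% G and C, and the Ikzf5 promoter 18 at 64%, against a median over all promoters of 6 CG. The letters GGGAA, the core that Ikaros zinc fingers are known to bind, were searched on both strands and occurred 0 times in promoter 1, 2 times in promoter 2 and 1 time in the Ikzf5 promoter. They were present in 56.2% of all promoters. The longer TGGGAA, which contains GGGAA, was in 21.6% of promoters and CCGGAAG in 6.91%, and neither was in the windows printed above.

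All 5 genes had open chromatin in both libraries (coordinates of GRCm38). Over all labelled cells, levels were 267 and 275 FPM for Ikzf1 (chr11:11684962-11772930), 257 and 267 FPM for Ikzf2 (chr1:69531207-69687351) and 352 and 317 FPM for Ikzf3 (chr11:98464610-98546031). They were 170 and 171 FPM for Ikzf4 (chr10:128630839-128669671) and 82.5 and 81.3 FPM for Ikzf5 (chr7:131388649-131410518). Per kb of window, where genes of different length can be compared, Ikzf3 was highest in the cecum at 3.85 FPM per kb, and Ikzf4 in the tumor at 3.495 FPM per kb against 3.47 for Ikzf3. Ikzf2, spread over 156 kb, was lowest at 1.54 and 1.60 FPM per kb, and all 5 lay above the median of all genes (0.666 and 0.694). This order differed away from the gene ends and flanks. Tiles outside the gene span held counts equal to 31.9% and 34.3% of the Ikzf3 window's fragments and 52.5% and 46.8% of those of Ikzf4. The Ikzf3 values are too high as shares, since its fullest flank tile (2631 and 3521 fragments) lies mostly past the window. In the span more than 1 kb from either end, the median cell type was highest for Ikzf1 (3.03 and 3.07 FPM per kb). There it was 2.76 and 2.37 for Ikzf3 and 2.03 and 2.25 for Ikzf4. The annotation used gives gene spans without exons, and the strand is known here for Ikzf1 and Ikzf5 from their promoters, so ends of the other genes are called by coordinate. The window of Ikzf4 also covered Rps26 and part of Suox, and that of Ikzf5 covered Pstk and part of Acadsb, so fragments there cannot be assigned to one gene.

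The members differed in how strongly their level depended on the cell type, and Ikzf2 stood out. Its highest cell type was 4.52-fold above its lowest in the cecum and 8.16-fold in the tumor, or 2.48 in place of 3.03 on the log2 scale in the tumor when each cell counted equally. Ikzf1 spanned 2.01-fold and 1.93-fold, Ikzf3 1.64-fold in both, Ikzf4 1.89-fold and 1.51-fold, and Ikzf5 1.66-fold and 1.72-fold. The median gene of the 11711 with enough fragments spanned 1.74-fold and 1.69-fold. A span of at least 2-fold in both libraries was reached by 22.6% of those genes and by 1 of the 5 members, Ikzf2.

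**Figure D1:**
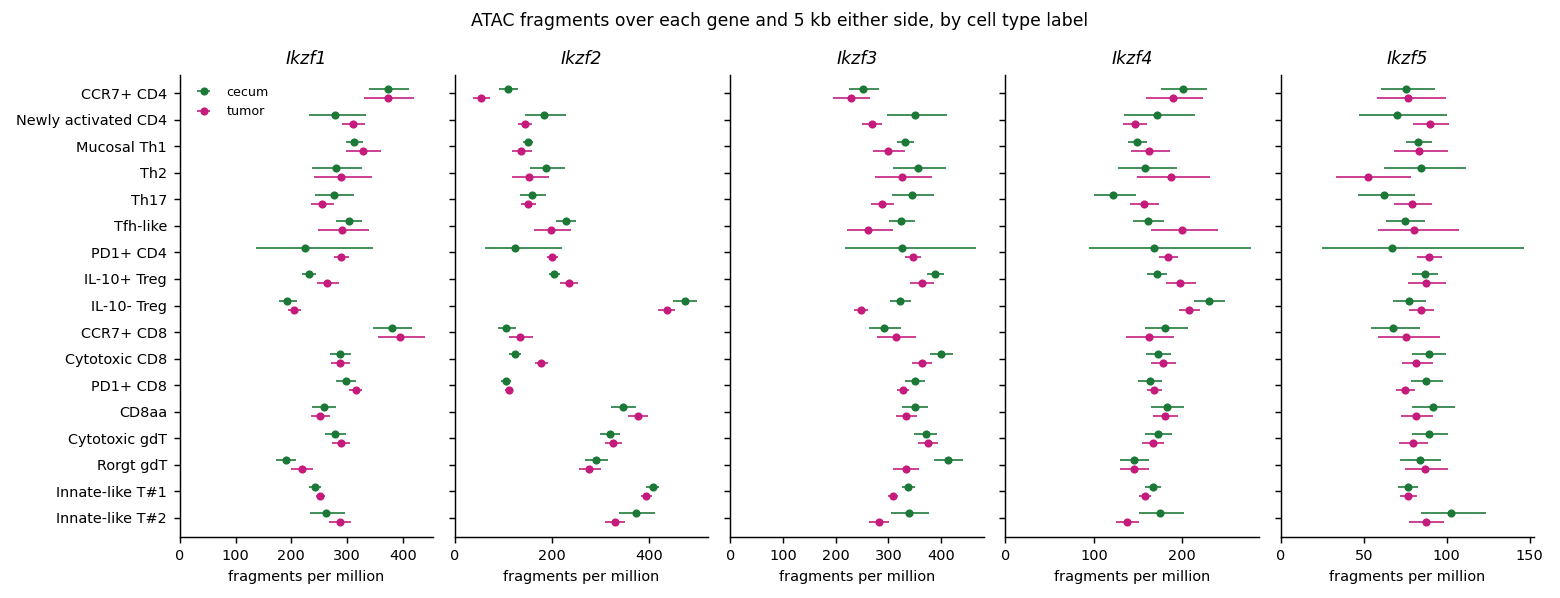
Level of each Ikaros family gene (x axis, FPM over the gene and 5 kb either side) in the 17 cell types (y axis) of the cecum (green) and tumor (pink) library. Points are summed counts of a cell type and bars exact 95% counting intervals; Ikzf2 ranged from 53.4 to 474 FPM, and Ikzf5 from 52.4 to 103 FPM in cell types with at least 50 cells.

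Helios (Ikzf2) was highest in IL-10- Treg cells, at 474 and 436 FPM. Unconventional T cells followed, with Innate-like T#1 at 407 and 394 FPM, Innate-like T#2 at 374 and 329 FPM, CD8aa at 347 and 377 FPM, Cytotoxic gdT at 319 and 326 FPM and Rorgt gdT at 291 and 277 FPM. These 6 of the 16 cell types led in both libraries. IL-10- Treg cells differed from Innate-like T#1 cells beyond counting error in both libraries, whereas Innate-like T#1 and its next neighbour in the order did not in either. Tfh-like cells came next in the cecum at 228 FPM and IL-10+ Treg cells in the tumor at 235 FPM. The lowest levels were those of PD1+ CD8 cells in the cecum and CCR7+ CD4 cells in the tumor, with PD1+ CD8 at 105 and 110 FPM, CCR7+ CD8 at 105.5 and 135 FPM and CCR7+ CD4 at 110 and 53.4 FPM, the latter from 39 fragments. The libraries ordered the 16 cell types alike for Ikzf2 (Pearson r 0.90), a description over cell types whose counts share a library and its depth.

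Ikaros (Ikzf1) had another order than Ikzf2. It was highest in the CCR7+ cell types, CCR7 being a marker of naive and central memory T cells, with CCR7+ CD8 at 380 and 395 FPM and CCR7+ CD4 at 374 and 373 FPM. The lowest levels were in Rorgt gdT cells (190 and 218 FPM) and IL-10- Treg cells (193 and 205 FPM). The order of cell types was shared by the libraries (r 0.95). Across the 16 cell types Ikzf1 and Ikzf2 levels had a Pearson r of -0.74 in the cecum and -0.76 in the tumor. The next largest was -0.63 for Ikzf1 and Ikzf3 in the cecum, against -0.13 in the tumor. These values describe cell types that share a library, and the cells of a type are counted in both genes.

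Aiolos (Ikzf3) was lowest in CCR7+ CD4 cells of either library, at 252 and 229 FPM. It was highest in Rorgt gdT cells of the cecum (414 FPM) and Cytotoxic gdT cells of the tumor (374 FPM), and the order was shared with r 0.75. In tumor IL-10- Treg cells it was 248 FPM, the second lowest level there, against 323 FPM in the same cells of the cecum. Eos (Ikzf4) was highest in IL-10- Treg of either library, at 230 and 208 FPM, and lowest in Th17 cells of the cecum (122 FPM) and Innate-like T#2 cells of the tumor (138 FPM). No 2 neighbours in its order differed beyond counting error, and the libraries shared little of the order (r 0.46). Pegasus (Ikzf5) showed no stable order (r 0.04), again with no neighbours apart.

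The highest and lowest levels depended on the window for Ikzf4. Without the flanks, which lie over Rps26 and Suox, its span over cell types was 1.92 on the log2 scale in the cecum and 0.86 in the tumor, against 0.92 and 0.60 with them. Between its ends, more than 1 kb from either, Ikzf4 ranged from 32.2 FPM in Th17 cells to 131 FPM in IL-10- Treg cells of the cecum, a 4.06-fold span. In the tumor this gene body ranged from 65.3 FPM in Innate-like T#2 to 119 FPM in IL-10- Treg cells.

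The study contrasts IL-10+ with IL-10- Treg cells. It describes the IL-10- subset by its Ikzf2 transcripts and already reports differing accessibility at putative enhancers of Ikzf2, so a gap there was known. The cell type labels come from RNA of the same nuclei. Among the members Ikzf2 had by far the widest gap. The log2 ratio, always taken as IL-10+ Treg against IL-10- Treg, was -1.21 (interval -1.32 to -1.10) and -0.89 (-1.02 to -0.76) for this gene. The reverse held for Ikzf1, at 0.26 (0.12 to 0.41) and 0.37 (0.23 to 0.50), from 232 over 193 FPM and 265 over 205 FPM, though in the cecum it was 0.10 as a mean over cells. Ikzf3 was likewise higher in IL-10+ Treg cells, at 0.27 (0.16 to 0.38) and 0.55 (0.43 to 0.67), from 390 against 323 FPM and 364 against 248 FPM. Ikzf4 was lower in IL-10+ Treg cells of the cecum, at -0.43 (-0.57 to -0.28), while in the tumor the interval included 0, at -0.07 (-0.22 to 0.08). In the Ikzf4 body alone, away from the flanks over Rps26 and Suox, the ratios were -0.75 (-0.95 to -0.56) and -0.21 (-0.42 to -0.01), both below 0. For Ikzf5 the intervals included 0 in both, at 0.17 (-0.06 to 0.40) and 0.05 (-0.18 to 0.27). Foxp3, which defines both subsets, was at 0.06 in both libraries.

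A difference of at least 1.5-fold in the same direction in both libraries was reached by 0.937% of 14406 genes with higher and 4.79% with lower levels in IL-10+ Treg cells. Of the 5 members 0 were higher and 1, Ikzf2, was lower by that rule, and Ikzf3 in the tumor lay just inside the limit of 0.58. The median of all genes was 0.01 in both libraries. Genes of the proteins that Ikaros factors work with were counted by the same rule. Of 13 NuRD genes 0 were higher and 0 lower, with median log2 ratios of 0.08 and 0.14, and of 5 genes of the cereblon ligase also 0 and 0 (0.03 and 0.17). Of 5 Sin3 and CtBP corepressor genes 0 were higher and 1 was lower, the corepressor gene Ctbp2 at -0.86 and -0.85, from 11.6 over 20.99 FPM and 12.5 over 22.4 FPM.

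Markers of other cell types were also counted. Over the 16 cell types of the cecum and tumor, the summed level of 6 B cell genes ran from 138 to 377 FPM and from 149 to 431 FPM, that of 6 myeloid genes from 150 to 251 FPM and from 166 to 253 FPM, and that of 10 epithelial genes from 82.5 to 203 FPM and from 99.9 to 215 FPM. In the Treg subsets the B cell sums were 204 against 215 FPM and 207 against 214 FPM. For the myeloid genes they were 169 against 171 FPM and 168 against 178 FPM. For the epithelial genes they were 102 against 136 FPM and 102 against 155 FPM, lower in the subset with less Ikzf2, and the part of this in the Ikzf2 ratio was not tested. Most of this gap came from Cdh1, at 50.1 against 75.0 FPM and 46.9 against 85.4 FPM, which fell just short of 1.5-fold in the cecum. Vil1 went the other way in the cecum, at 21.9 against 17.3 FPM. Of these lists 4, 3 and 3 genes had enough fragments, and 1 was called, the B cell factor gene Ebf1, which was lower in IL-10+ Treg cells at -0.68 and -0.70. All 6 T cell genes were uncalled, with sums of 800 against 762 FPM and 757 against 690 FPM.

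The cell type dependence of Ikzf2 lay in the body of the gene more than at its ends. Tiles within 1 kb of either end held 16.8% and 15.5% of the window's fragments, nearly all at the high-coordinate end, and the body held 76.5% and 78.4%. At the ends, levels ran from 30.5 to 61.5 FPM over the 16 cell types of the cecum and from 24.7 to 55.3 FPM in the tumor. In the body they ran from 55.9 FPM in CCR7+ CD8 to 390 FPM in IL-10- Treg cells of the cecum, and from 26.03 FPM in CCR7+ CD4 to 376 FPM in IL-10- Treg cells of the tumor. The span over cell types was thus 2.02-fold at the ends and 6.98-fold in the body of the gene for the cecum, and 2.24-fold and 14.5-fold for the tumor. The tumor body span was 3.85 on the log2 scale, with a wide interval (3.21 to 4.59). Its lowest cell type, CCR7+ CD4, had 39 fragments over the whole window. The flank tiles, with 7.78% and 7.48% of the fragments, also differed between cell types, by 4.59-fold and 7.75-fold.

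**Figure D2:**
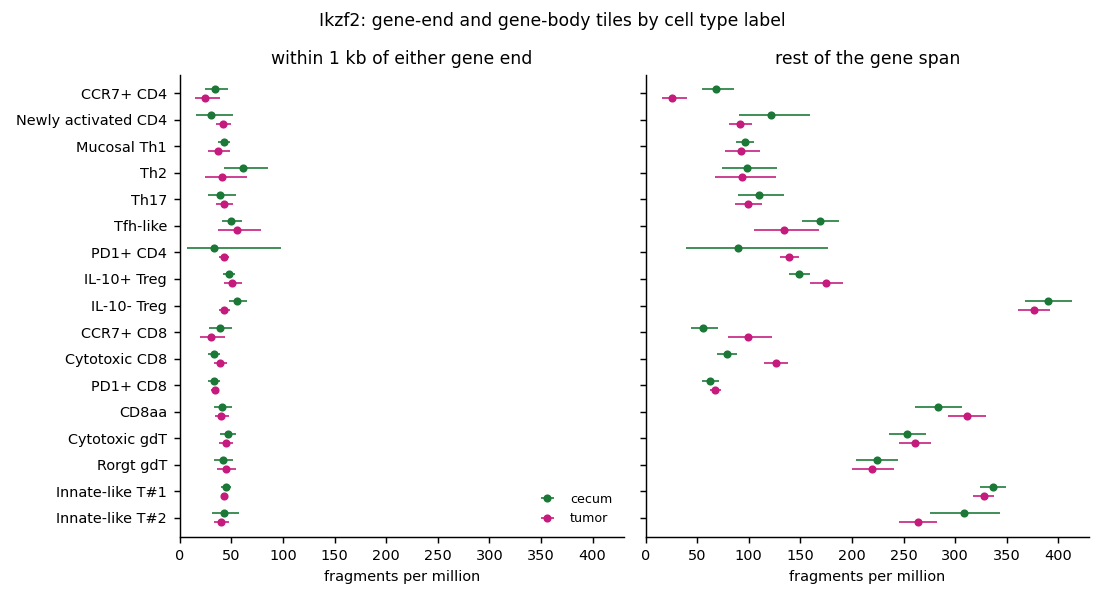
Ikzf2 level (x axis, FPM) in the 17 cell types (y axis) for tiles within 1 kb of either gene end (left) and for the rest of the gene span (right), in the cecum (green) and tumor (pink) library, with exact 95% counting intervals. Every cell type with at least 50 cells lies between 24.7 and 61.5 FPM at the ends, while the body runs from 26.03 to 390 FPM.

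The Treg subsets showed the same division. At the ends, the cecum showed 47.6 FPM in IL-10+ Treg against 55.7 FPM in IL-10- Treg and the tumor 50.96 against 43.2 FPM, with log2 ratios of -0.22 (-0.51 to 0.06) and 0.24 (-0.07 to 0.54). In the body the cecum showed 149 against 390 FPM and the tumor 174 against 376 FPM, with log2 ratios of -1.39 (-1.52 to -1.26) and -1.11 (-1.25 to -0.96). In the flanks, with fewer fragments, the ratios were -1.67 (-2.15 to -1.21) and -0.81 (-1.40 to -0.27). The high-coordinate end taken alone was 45.4 against 43.3 FPM and 48.4 against 36.5 FPM. The low-coordinate end, where the median cell type had 1.49 and 1.54 FPM, was 2.28 against 12.3 FPM and 2.57 against 6.72 FPM. At the high-coordinate end the level in IL-10+ Treg was thus not below that in IL-10- Treg, with log2 ratios of 0.07 (-0.24 to 0.38) and 0.41 (0.08 to 0.73).

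Of the 333 tiles over Ikzf2, 26 reached the limit of 20 fragments per library, summed over the Treg subsets. With a limit of 2-fold in both libraries, 0 tiles were higher and 6 were lower in IL-10+ Treg cells, against 2.2% and 3.22% of 74601 such tiles in the genome, and the intervals of 5 of the 6 lay below 0 in both libraries. The tile at chr1:69638001-69638500, 107 kb into the gene, had 1.40 against 5.33 FPM and 1.10 against 5.34 FPM. In Innate-like T#1 cells it had 5.95 and 5.68 FPM. The tile at chr1:69554001-69554500, 23.0 kb into the gene, was highest in IL-10- Treg at 4.999 and 6.37 FPM, against 0.876 and 0.733 FPM in IL-10+ Treg. The tile at chr1:69692001-69692500, 4.90 kb beyond the high-coordinate end, was led by Th2 in each library with 28.1 and 22.8 FPM, while IL-10- Treg had 19.7 and 11.5 FPM and Tfh-like cells 1.41 and 0 FPM. The Th2 lead rested on few fragments, since Th2 cells numbered 90 and 58. The tile at chr1:69599501-69600000, 68.5 kb into the gene, was led by IL-10- Treg cells at 8.66 and 8.96 FPM with CD8aa cells next at 5.11 and 2.60 FPM. These last 3 tiles were picked for their Treg ratio and reached the fragment limit mostly through IL-10- Treg. The tile at 107 kb was chosen after its values were seen. The Treg values of all these tiles therefore describe the choice.

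The body tile with most fragments did not share the gap of the gene as a whole. At chr1:69544001-69544500, 13.04 kb from the low-coordinate end, the IL-10+ subset had 29.9 FPM against 27.99 FPM in the cecum, and 32.6 against 20.2 FPM in the tumor. The log2 ratio was 0.10 (-0.29 to 0.49) in the cecum, within counting error, and 0.69 (0.28 to 1.11) in the tumor. Tfh-like cells had 33.8 and 28.5 FPM there, while Innate-like T#1 cells, with the second highest level of the gene as a whole, had 5.33 and 6.003 FPM.

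This raised the question of whether IL-10- Treg and innate-like cells, which shared a high Ikzf2 level, opened the same tiles, a comparison chosen after the levels were seen. Of 92 Ikzf2 tiles with 20 fragments or more over IL-10- Treg and Innate-like T#1 cells per library, 11 (11.96%) were at least 2-fold higher in IL-10- Treg in each library and 4 (4.35%) at least 2-fold lower. Over 103424 tiles of the genome these shares were 6.87% and 14.8%. The intervals excluded 0 in both libraries for 10 of the 11 higher tiles and for 0 of the 4 lower ones. The 4 lower tiles reached the fragment limit mostly through Innate-like T#1 cells. These had 128 and 206 counts there, against 22 and 42 in IL-10- Treg, so the positions are only described. The 11 higher tiles lay from -0.46 to 68.5 kb from the low-coordinate end, 9 of them within 23.0 kb, and the 4 lower ones at 126 to 145 kb.

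**Figure D3:**
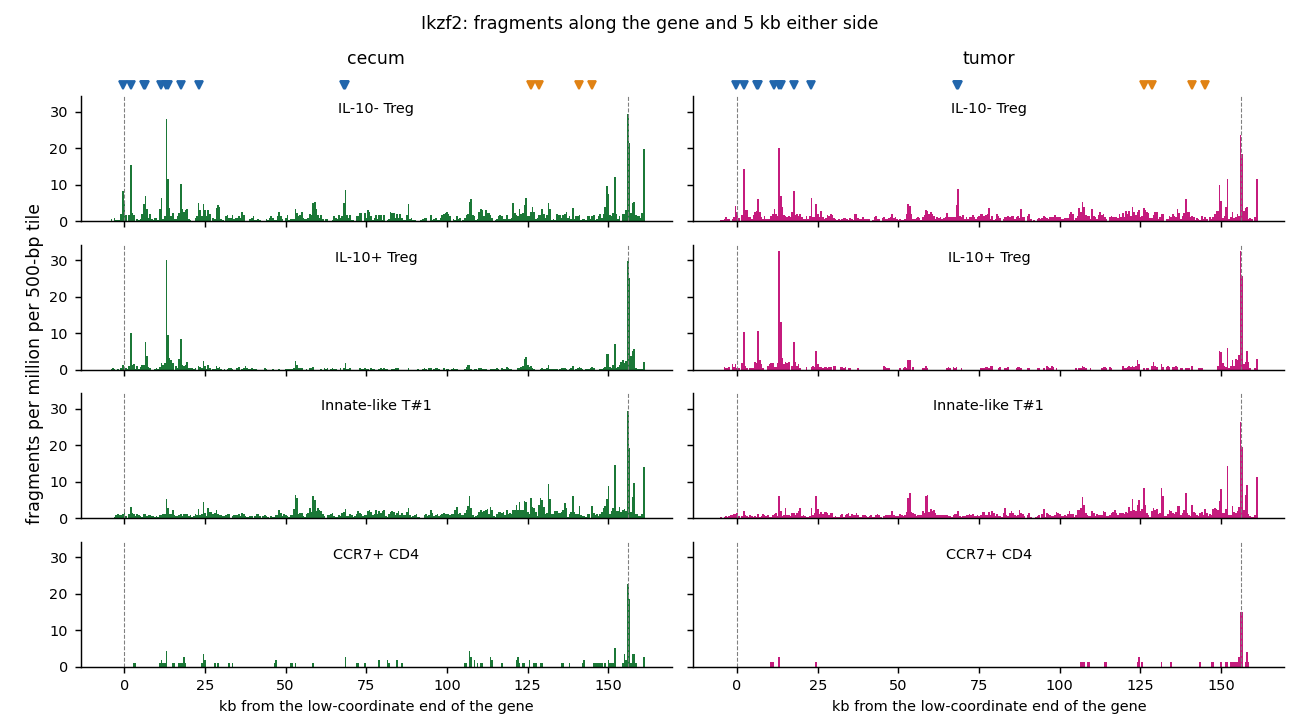
FPM in each 500-bp tile (y axis) along Ikzf2 and 5 kb either side (x axis, kb from the low-coordinate end, with dashed lines at the gene ends) in 4 cell types (panels from top to bottom) of the cecum and tumor library. Triangles mark the 11 tiles higher (blue) and 4 lower (orange) in IL-10- Treg than in Innate-like T#1 cells; the tile at 13.04 kb reaches 29.9 and 32.6 FPM in IL-10+ Treg and 5.33 and 6.003 FPM in Innate-like T#1.

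Summed over the 11 tiles, IL-10- Treg had 110 and 86.1 FPM and Innate-like T#1 cells 23.1 and 21.2 FPM, values that the choice of tiles fixed. Cell types that the choice did not use fell into a different order from that of the whole gene. Tfh-like cells had 75.0 and 60.6 FPM and IL-10+ Treg cells 72.7 and 79.9 FPM. Rorgt gdT cells, an unconventional type, came next at 58.7 and 49.4 FPM. All 3 lay above CD8aa cells (38.5 and 37.9 FPM) and Innate-like T#2 cells (16.03 and 19.9 FPM). CCR7+ CD4 cells had 9.22 and 2.74 FPM. Summed over the 4 lower tiles, Innate-like T#1 cells had 15.9 and 16.5 FPM and IL-10- Treg 7.33 and 7.23 FPM, which the choice fixed. Innate-like T#2 cells had 15.1 and 10.6 FPM there and CD8aa cells 14.9 and 12.1 FPM. CCR7+ CD8 cells had 1.57 and 14.6 FPM, from 2 and 13 fragments, and Tfh-like cells 0.938 and 8.92 FPM, from 2 and 5, few counts in the cecum. IL-10+ Treg cells had 2.45 and 2.57 FPM and Mucosal Th1 cells 0.758 and 1.54 FPM.

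The 11 tiles held 35.5% and 33.96% of the Ikzf2 fragments of IL-10+ Treg, against 23.3% and 19.7% in IL-10- Treg cells. Over these tiles the log2 ratio was -0.60 (-0.81 to -0.39) and -0.11 (-0.34 to 0.12). Over the rest of the window it was -1.46 (-1.60 to -1.33) and -1.17 (-1.33 to -1.02). The rest was the window count less these tile counts, so its ratios and intervals are approximate, as are those over the tiles. Summed in this way, the gap between the subsets was wider outside these tiles, which had been chosen as higher in IL-10- Treg than in Innate-like T#1 cells. The 11 tiles were mixed. Those at -0.46, 11.5, 23.0 and 68.5 kb were among the 6 called lower in IL-10+ Treg, while the body tile with most fragments, at 13.04 kb, was not.

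A pair of Ikzf4 tiles, picked for the widest Treg ratio of the gene, held few fragments in cell types other than IL-10- Treg. They lay at chr10:128641001-128641500 and chr10:128642501-128643000, 10.4 and 11.9 kb from the low-coordinate end and inside the gene span. Together they had 47 fragments in IL-10- Treg of the cecum (15.7 FPM) against 3 in IL-10+ Treg (0.525 FPM). In the tumor they had 68 fragments (11.7 FPM) against 2 (0.733 FPM). The tiles were picked for their Treg ratio and reached the fragment limit through IL-10- Treg, so the Treg values and the share of IL-10- Treg describe the choice and support nothing. In all other cell types together, IL-10+ Treg cells included, the tiles had 24 and 27 fragments, and Newly activated CD4 cells of the cecum were next highest at 2.34 FPM, from 1 fragment. IL-10- Treg cells gave 66.2% and 71.6% of the fragments of the pair, against 6.82% and 9.35% of all fragments of labelled cells, a gap that the choice of the tiles favoured.

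Of 20 Ikzf4 tiles with enough fragments over the Treg subsets, 0 were higher and 2, this pair, were lower in IL-10+ Treg cells, beside genome shares of 2.2% and 3.22%. Against Innate-like T#1 cells the same 2 of 22 tiles (9.09%) were higher in IL-10- Treg cells and 0 lower, with 6.87% and 14.8% in the genome, so the share of higher tiles was near the background. Outside the pair, by the same subtraction of tile counts, the log2 ratio of Ikzf4 was -0.33 (-0.47 to -0.18) and 0.01 (-0.14 to 0.16). The tile of Ikzf4 with most fragments inside the gene, chr10:128637001-128637500, differed in opposite directions, with 30.1 FPM in IL-10+ Treg against 45.7 FPM in the cecum and 46.2 against 34.6 FPM in the tumor. The tile at chr10:128664001-128664500, 33.4 kb into the gene, was led by Cytotoxic gdT and CD8aa cells, at up to 12.3 and 13.01 FPM. The fullest tile of the whole window lay over Rps26, at 46.9 against 44.99 FPM and 43.99 against 43.9 FPM, and the one that came after chr10:128637001-128637500 lay over Suox, at 25.05 against 26.3 FPM and 30.1 against 21.4 FPM.

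**Figure D4:**
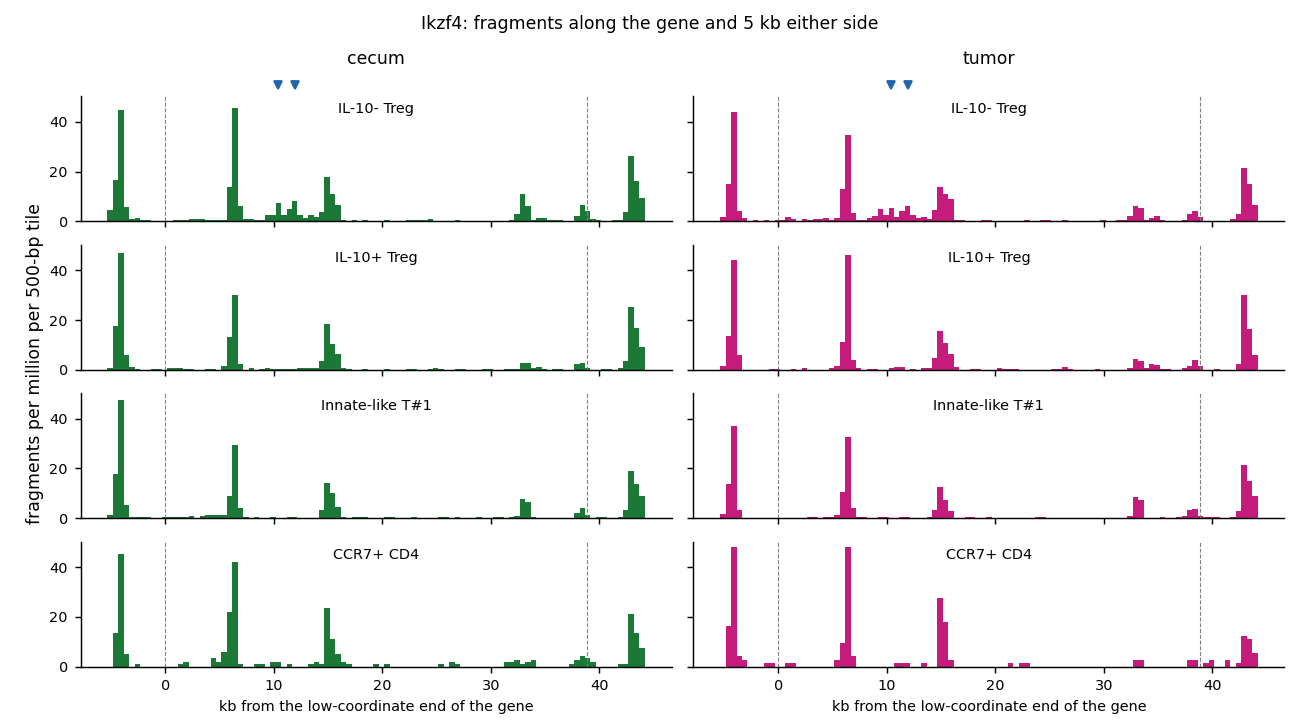
FPM in each 500-bp tile (y axis) along Ikzf4 and 5 kb either side (x axis, kb from the low-coordinate end, with dashed lines at the gene ends) in 4 cell types (panels from top to bottom) of the cecum and tumor library. Blue triangles mark the pair of tiles at 10.4 and 11.9 kb, which had 15.7 and 11.7 FPM together in IL-10- Treg cells and 0.733 FPM or less in IL-10+ Treg cells; the peaks outside the gene lie over Rps26 (left) and Suox (right).

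Ikzf3 tiles differed the other way. Of 32 tiles with enough fragments over the Treg subsets 3 were higher in IL-10+ Treg cells and 0 lower, beside genome shares of 2.2% and 3.22%, and for 1 of the 3 the intervals lay above 0 in both libraries. This was chr11:98461001-98461500, 3.36 kb outside the low-coordinate end, with 7.71 against 2.33 FPM and 5.13 against 2.07 FPM. It was picked for its Treg ratio and passed the limit in the cecum mostly through IL-10+ Treg (44 against 7 fragments). These Treg values therefore describe the choice. The tile was more open in Innate-like T#1 cells, at 11.5 and 12.005 FPM. Of 59 Ikzf3 tiles compared between IL-10- Treg and Innate-like T#1 cells, 13 (22.0%) were lower and 3 (5.08%) higher in IL-10- Treg cells, beside 14.8% and 6.87% of tiles in the genome. The 13 lower tiles summed to 21.7 and 17.1 FPM in IL-10- Treg and, in cell types not used to choose them, to 85.4 and 97.6 FPM in Cytotoxic gdT, 78.8 and 74.8 FPM in Cytotoxic CD8 and 46.6 and 40.0 FPM in IL-10+ Treg cells. They were also low in CCR7+ CD4 (27.7 and 23.3 FPM), Th17 (22.97 and 27.4 FPM) and Tfh-like cells (31.4 and 14.3 FPM). The 3 higher tiles, 39.7 and 28.1 FPM in IL-10- Treg cells, were at 72.1 and 41.0 FPM in Th2 and 38.4 and 44.0 FPM in IL-10+ Treg cells but 8.82 and 9.54 FPM in CD8aa cells. The Ikzf3 tile with most fragments, chr11:98551001-98551500, reaches out of the window and over the neighbouring gene Zpbp2, and had 63.1 against 54.3 FPM and 62.7 against 62.5 FPM in the Treg subsets. Inside the gene the fullest was chr11:98470001-98470500, with 30.6 against 41.99 FPM and 31.5 against 30.7 FPM.

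Signal over Ikzf1 was spread over the body, which held 91.4% of its fragments in both libraries, and its low-coordinate end overlaps the annotated transcript Gm11999. None of 36 tiles passed 2-fold between the Treg subsets in both libraries. The tile with most fragments, chr11:11741501-11742000, was lowest in IL-10- Treg of either library, at 6.66 and 3.96 FPM, against 13.3 and 13.6 FPM in IL-10+ Treg. The next, chr11:11737001-11737500, was highest in CD8aa cells at 25.99 and 28.6 FPM. Against Innate-like T#1 cells 8 of 49 Ikzf1 tiles (16.3%) were lower and 0 higher in IL-10- Treg cells, a share near that of the genome. The windows of promoters 1 and 2 of Ikzf1, read from 250 bases before to 50 after each start, held 3.92% and 3.09% of the gene's cecum fragments and 3.82% and 3.08% of its tumor fragments. Promoter 1 had 11.2 against 8.66 FPM and 12.1 against 13.3 FPM in the Treg subsets, with log2 ratios of 0.37 (-0.31 to 1.09) and -0.13 (-0.77 to 0.47). Promoter 2, the one with 1 CG, had 13.3 against 8.33 FPM in the Treg subsets of the cecum, and 11.7 against 7.75 FPM in those of the tumor. Their log2 ratios were 0.68 (0.01 to 1.39) and 0.60 (-0.10 to 1.28).

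Ikzf5 was the opposite case. The same 300 bases around its promoter held 74.7% and 71.7% of the gene's fragments, and its 3 fullest tiles 87.7% and 87.8%. The promoter ranged from 49.4 FPM in Th17 to 77.3 FPM in Innate-like T#2 cells of the cecum and from 43.3 FPM in Th2 to 67.7 FPM in Newly activated CD4 cells of the tumor. The tile on it also overlaps Acadsb. Its log2 ratio between the Treg subsets was 0.28 (0.02 to 0.55) and -0.03 (-0.30 to 0.24). None of 3 Ikzf5 tiles with enough fragments was called between the Treg subsets, and none of 4 against Innate-like T#1 cells.

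Between the tissues, Ikzf3 differed in the same direction in most cell types. Its level was lower in the tumor in 14 of the 16 cell types, with intervals below 0 in 8 of them and above 0 in 0. Levels lower in at least 13 of 16 cell types were found for 5.68% of 11711 genes and higher for 3.91%, and no other member reached 13 in either direction. IL-10- Treg had 323 and 248 FPM, a log2 difference of -0.38 (-0.50 to -0.26), Rorgt gdT cells 414 and 334 FPM (-0.31, -0.46 to -0.17), and Newly activated CD4 cells 351 and 269 FPM (-0.39, -0.64 to -0.12). In the gene body alone 14 of 16 cell types were lower, 9 with intervals below 0, while the flank tiles, among them the one over Zpbp2, were lower in 11, 2 of them with such intervals. Foxp3 was also lower in the tumor in 13 of 16, and the median of all genes lay between -0.03 and 0.02 in each cell type.

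Ikzf1 was higher in the tumor in 12 of 16 cell types, by at most 0.20, with intervals above 0 in IL-10+ Treg and Rorgt gdT cells. For Ikzf2 the direction depended on the cell type. Tumor levels were higher for IL-10+ Treg and for Cytotoxic CD8 cells, the latter with the wider gap (123 and 178 FPM, log2 0.53, 0.35 to 0.71), and lower in CCR7+ CD4 cells (110 and 53.4 FPM, -1.04, -1.59 to -0.51), IL-10- Treg and Innate-like T#2 cells. CCR7+ CD4 cells had a median of 8588 fragments per cell in the cecum and 3898.5 in the tumor. Without cells above 3 times the library median, 425314 of their 1192883 cecum fragments and 710860 of their 729919 tumor fragments remained. The part of this depth in the difference was not tested. In the body of Ikzf2 the largest increase from cecum to tumor was in CCR7+ CD8 cells (55.9 and 99.1 FPM, 0.83, 0.36 to 1.30), whose whole-gene interval included 0, followed by Cytotoxic CD8 cells (78.5 and 126 FPM). The body in IL-10- Treg had 390 and 376 FPM (-0.05, -0.15 to 0.05), the ends 55.7 and 43.2 FPM (-0.36) and the flanks 34.7 and 22.6 FPM (-0.62). PD1+ CD4 cells, too few in the cecum to compare, had 201 FPM in the tumor from 616 cells. Ikzf4 was split, with 8 cell types higher and 8 lower, and by these intervals it was higher in IL-10+ Treg and Th17 cells and lower in IL-10- Treg and Innate-like T#2 cells. Its body alone was higher in the tumor in 11 of 16, with intervals above 0 in 6 and below 0 in 1, and its flanks lower in 12. For Ikzf5, 10 were higher and 6 lower, and the interval of PD1+ CD8 cells alone left 0 out, at -0.23 (-0.42 to -0.03).

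**Figure D5:**
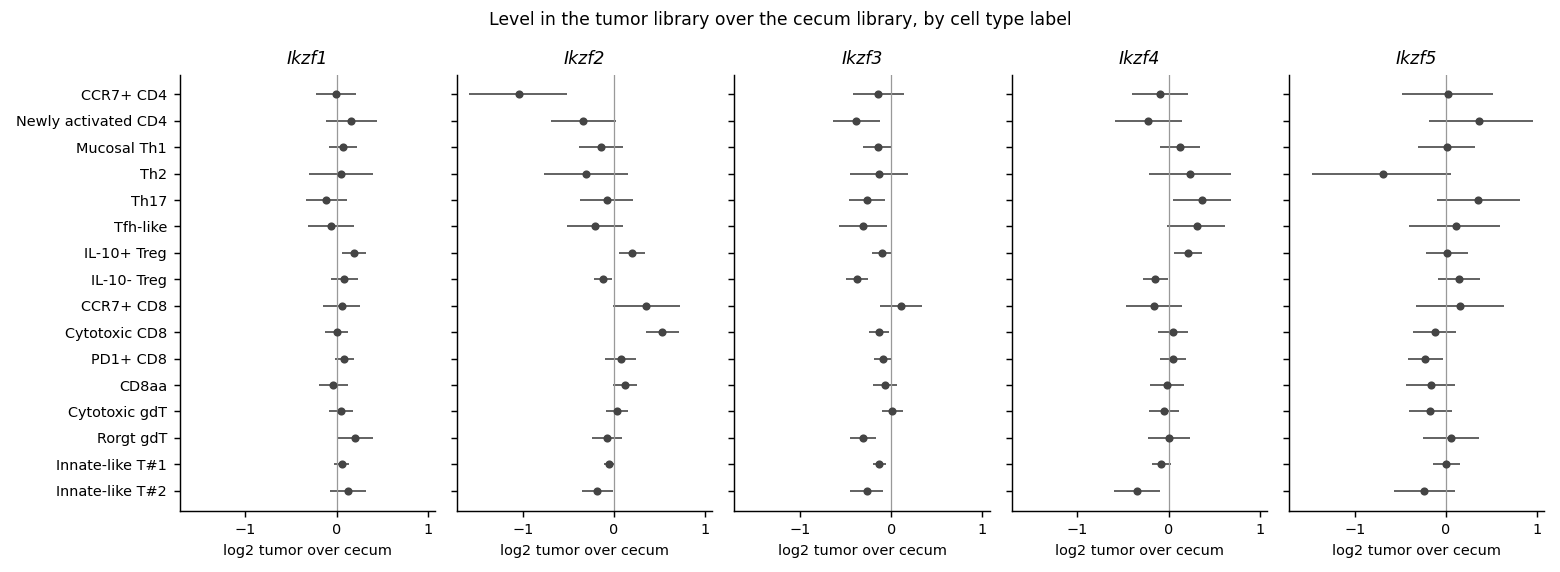
Log2 level in the tumor over the cecum library (x axis) for each Ikaros family gene in the 16 cell types with at least 50 cells in both (y axis), with exact 95% counting intervals and a line at 0. Ikzf3 lies left of the line in 14 of 16 cell types, and Ikzf2 ranges from -1.04 in CCR7+ CD4 to 0.53 in Cytotoxic CD8 cells. CCR7+ CD4 cells had a higher median of fragments per cell in the cecum than in the tumor.

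Genes with the pattern most like each member were sought over 32 points, 16 cell types in each of 2 libraries, by the Pearson r of log2(FPM + 1) centred within a library, among 11711 genes at least 100 kb away. Ikzf2 was most like Ap3b1 (r 0.88), Myo1e (0.87) and Lyn (0.82). Ikzf1 was most like Cdkl4 (0.87), Spata48 (0.86) and Pip4k2a (0.84). Of these, Spata48 (chr11:11463744-11515192) lies in the same region of chromosome 11 as Ikzf1, beyond the 100 kb limit. Ikzf3 was most like Iqgap1 (0.81), Fgl2 (0.77) and Plekhf1 (0.76), and Ikzf4 like Lrrc58 (0.77), Gm36028 (0.73) and Cc2d1b (0.69), the first 2 being neighbours on chromosome 16. The values for Ikzf5, which had no stable order, were 0.74 for Gsdma, 0.73 for Tspoap1 and 0.71 for Vcpip1.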

How the data were processed

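T cells of 2 tissues gave 1 ATAC library each. The files deposited by the authors list unique fragments with a barcode and a raw count of read pairs, made with Cell Ranger ARC 2.0.0 against mm10 according to their headers and not normalized. A deposited annotation assigns cells to libraries and to cell types called from RNA. The RNA itself was not used here. Doublets were not called, and the sources used here do not say whether the authors removed any. The organoid genotype is not reported here in full.

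Fragments of labelled cells on the main chromosomes numbered 43980981 (cecum) and 62118519 (tumor), or 66.2% and 64.3% of all fragments there. One with either end in a window was counted once there, summed by label and scaled to FPM. A RefSeq table of GRCm38.p6 gave the gene spans. Gene-end tiles lie within 1 kb of either end, flank tiles outside the span, and body tiles are the rest. A fragment can count in more than 1 tile class, and edge tiles can reach past the window, so class shares can sum past the whole. Log2 ratios and exact conditional intervals were taken from summed counts, with a floor of 3 counts per label in place of a count of 0. Genes entered with 50 fragments over the Treg subsets per library, or 1000 over all labelled cells for comparisons across labels, and tiles with 20. No replicate libraries exist within a tissue, so nothing was tested, and cells are not replicates.

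The members and gene lists were chosen with earlier results of these data known. Named were the 5 members, Foxp3 as a comparison, list genes past 1.5-fold in both libraries (at most 2 in each direction), the 3 genes most like each member, and of each member's 3 fullest tiles and 3 tiles with the largest Treg ratio of the same sign those that a result turned on. The Ikzf2 tile at 107 kb was chosen after its values were seen. The counter was tested on simulated fragments. Alternatives were a minimum of 1000 fragments per cell, leaving out cells above 3 times the median, other windows, scaling by gene-end fragments, means over cells, counting every end, and pseudocounts of 1 and 5 FPM. Software was Python 3.11.15 with scipy 1.17.1, numpy 2.4.6, numba 0.67.0, pandas 2.3.3 and, for plots, matplotlib 3.10.9.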

Additional observations from a re-analysis of the deposited data

Results flagged for a closer look

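In 2 genes the tumor and cecum libraries differed in opposite directions in the 2 Treg subsets, with both intervals of the whole window away from 0. The log2 level of Ikzf2 in the tumor over the cecum was 0.20 in IL-10+ Treg and -0.12 in IL-10- Treg cells. For Ikzf4 it was 0.21 in IL-10+ Treg and -0.15 in IL-10- Treg. For the gene bodies alone the IL-10- Treg intervals included 0, at -0.05 (-0.15 to 0.05) for Ikzf2 and -0.14 (-0.32 to 0.05) for Ikzf4, whose flanks lie over Rps26 and Suox. The difference between the subsets was not tested, since there was 1 library per tissue.

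Barcodes without a label, which no comparison used, also held fragments of every member. Their levels in the cecum were 202 FPM for Ikzf1, 192 FPM for Ikzf2, 266 FPM for Ikzf3, 129 FPM for Ikzf4 and 61.2 FPM for Ikzf5. In the tumor they were 228 FPM for Ikzf1, 234 FPM for Ikzf2, 258 FPM for Ikzf3, 144 FPM for Ikzf4 and 66.8 FPM for Ikzf5. All 10 lay above a floor of 3 counts and below the level of the labelled cells of the same library.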

How the results depend on the processing

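Of 184 recomputed Treg ratios and spans over cell types, 161 stayed within the counting interval of the value they replaced and 21 left it. The other 2 changed sign, which was counted only where that interval excluded 0. Within 1 kb of either gene end, the log2 Treg ratio (IL-10+ against IL-10-) changed sign for Ikzf2 in the tumor (0.32) and for Ikzf3 in the cecum (-0.0031), and was 0.46 for Ikzf1 in the cecum, -0.22 for Ikzf2 in the cecum, and -1.08 and -0.53 for Ikzf4 in the cecum and tumor. The log2 span over cell types in that window was 1.43 and 1.30 for Ikzf1, 1.001 and 1.15 for Ikzf2, 1.06 for Ikzf3 in the tumor, and 2.20 and 1.35 for Ikzf4. Without flanks the Ikzf4 ratio was -0.77 and -0.23, and the span was 2.47 for Ikzf2 in the cecum and 1.92 and 0.86 for Ikzf4. With means over cells the ratio was 0.10 for Ikzf1 in the cecum, and the span 2.48 for Ikzf2 in the tumor, 0.97 for Ikzf3 in the tumor, and 1.41 and 0.80 for Ikzf4. Windows without flanks or body leave out those fragments by construction, and the cause was otherwise not tested. The gene-end and gene-body ratios of Ikzf2 stayed within their intervals under all alternatives tried for them. No paired analysis was possible because each tissue had 1 library and no replicate could be left out. Cell types with few fragments, such as Th2 and Newly activated CD4 cells of the cecum, had wide intervals.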
